A study of Mus musculus with 4 samples.

Results

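Kit-positive, Il2ra-negative and Tcf7-negative cells were followed in 2 pooled single-cell experiments on mouse bone marrow progenitors that were driven toward the T lineage in culture. Members were barcodes with at least 500 genes, under 10% mitochondrial UMIs (unique molecular identifiers, the tags that count single RNA molecules) and at least 10000 UMIs. They also had at least 1 UMI of Kit, 0 UMIs of Il2ra and of Tcf7, and under 5 UMIs each of Mcpt8 (basophils), Elane and S100a8 (granulocytes) and Col1a2 (stroma). In all, 1954 of 19546 kept cells were members, 829 of 9332 in experiment 1 (8.88%, exact 95% interval 8.31 to 9.48%) and 1125 of 10214 in experiment 2 (11.0%, 10.4 to 11.6%). Kept cells are barcodes past the gene and mitochondrial limits. Members were thus selected on measured UMIs of 7 genes and on depth, and the intervals, all at 95%, cover counting error and nothing else.

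The earliest cells that enter T-cell development carry the stem cell factor receptor Kit and lack the IL-2 receptor alpha chain, which is encoded by Il2ra and marks the next stage. Notch signals from the stroma turn on Tcf7 (the factor TCF1) and Gata3 in them, and the stem and multipotent program of Lmo2, Mef2c, Bcl11a and Spi1 (the factor PU.1) is then shut down before commitment, which is marked by Bcl11b. Such early cells still have access to myeloid, dendritic, innate lymphoid and B-cell fates.

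The labels describe the cells as Bcl2-transgenic Phase 1 T progenitors with high Kit, grown on OP9-Dll1 stroma (OP9 cells that display the Notch ligand Dll1) with IL-7 and Flt3 ligand at 10 ng/ml each. For gain of Runx1, marrow cells of B6.Bcl2 transgenic mice aged 8 to 10 weeks received MSCV-Runx1-mCherry or MSCV-empty-mCherry on day 2, and live lineage-negative mCherry+ CD45+ cells were sorted on day 4 or 6. For loss of Runx1 and Runx3, cells of B6.Cas9;Bcl2 transgenic mice received the E42 guide vectors gRunx1 with hNGFR and gRunx3 with mTurquoise, 3 guide pairs for each gene, or gControl vectors with luciferase guides. Those cells were sorted on day 5 or 8 as live, lineage-negative and positive for mTurquoise, hNGFR and CD45. All groups thus carry Bcl2, a survival transgene whose promoter is not given in the sources used here. Experiment 1 covers 4 to 5 days of culture and experiment 2 covers 4 to 8 days. Each culture was stained with 1 of 8 hashtag oligos before pooling. The condition behind a hashtag is not given in the sources used here, so the 8 hashtags of an experiment are 8 samples of unknown condition. With 1 library per experiment, no test across conditions was made. A difference is described by its size, its counting interval and the number of hashtags that show its direction.

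The hashtag sequences, which are all that ties a member to its culture and are the same 8 in both experiments, are printed as given in the deposited column names.
Hashtag 1: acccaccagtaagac
Hashtag 2: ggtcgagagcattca
Hashtag 3: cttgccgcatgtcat
Hashtag 4: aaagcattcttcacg
Hashtag 5: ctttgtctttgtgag
Hashtag 6: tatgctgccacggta
Hashtag 7: gagtctgccagtatc
Hashtag 8: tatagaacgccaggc

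Depth was alike in members and in the cells they were set against. A member had a median of 26580 UMIs and 4844 genes in experiment 1, against 25130 UMIs and 4776 genes in the other kept cells. The medians of experiment 2 were 29699 UMIs and 4787 genes against 26220 UMIs and 4558 genes. Cells with more than 1 hashtag made up 2.53% of members (1.57 to 3.85%) and 7.91% of other cells in experiment 1. In experiment 2 they were 17.0% (14.8 to 19.3%) against 21.0%. The libraries shared 39 barcodes, which belonged to 4 members of experiment 1 and 5 of experiment 2.

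The rule turns on 3 genes, and their levels in members describe the choice rather than a finding. Kit (chr5:75574987-75656722 in GRCm38) had 70.9 CPM in members of experiment 1 (67.5 to 74.5; CPM is a gene's UMIs as a share of all UMIs summed over the cells, on the usual counts-per-million scale) and 53.6 CPM in experiment 2, with a median of 2 and 1 UMIs per member. Kit and Il2ra double-positive cells, which passed the same filters and are called double-positive below, had 89.0 and 61.9 CPM of Kit. Their Il2ra (chr2:11642792-11693194) stood at a median of 9 and 7 UMIs per cell, so most of them lay far from the limit of 0. Cells that were Kit-positive and Il2ra-negative but held Tcf7 (chr11:52246527-52283383) had a median of 4 and 3 Tcf7 UMIs. The double-positive group held 4036 and 2338 cells and the Tcf7-positive group 1360 and 1052 cells.

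Kit UMIs were also found in cells rich in Col1a2 or S100a8 UMIs, and whether these were single cells of 1 type was not tested. Of cells with 5 or more Col1a2 UMIs, 28.2% (15.001 to 44.9%) in experiment 1 and 24.8% (21.3 to 28.6%) in experiment 2 held a Kit UMI. Their median depths were 34900 and 37994 UMIs. Of cells with 5 or more S100a8 UMIs, 66.0% (51.2 to 78.8%) and 25.8% (21.7 to 30.2%) held a Kit UMI, against 72.6% and 50.2% of all kept cells. A Kit UMI was thus not seen in every kept cell, although the label gives high Kit. These are RNA counts, with a median of 2 Kit UMIs even in double-positive cells, so they do not test that label. Cells with 5 or more UMIs of Mcpt8 numbered 333 and 305, of Elane 126 and 341, of S100a8 50 and 431 and of Col1a2 39 and 560, after a sort for lineage-negative cells. A single Kit UMI was all that 381 of 829 and 650 of 1125 members had, and the part of free RNA in these was not tested.

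Members carried the early progenitor markers Mef2c, Cd34, Spi1 and Lmo2, which the rule did not use, at higher levels than other cells. Lmo2, a bridging protein of stem cell transcription complexes (chr2:103957903-103981878), ranked first of all genes by the smaller of its ratios in both experiments, at 147 CPM in members and 43.4 CPM in other cells of experiment 1, a ratio of 3.40 (3.26 to 3.53). Experiment 2 gave 141 against 53.2 CPM (2.64, 2.56 to 2.73). Against double-positive cells, the Lmo2 ratio was 5.96 (5.67 to 6.27) and 5.04 (4.79 to 5.31). Thinned to 10000 UMIs per cell, 67.4% and 64.7% of members held an Lmo2 UMI, against 15.1% and 14.5% of double-positive cells.

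Lmo2 was higher in members than in other cells of the same hashtag in 8 of 8 hashtags of both experiments. In hashtags 1 to 8 of experiment 1 members had 139, 144, 123, 149, 127, 136, 160 and 175 CPM, and the ranges did not overlap, with other cells between 22.2 and 67.9 CPM. In experiment 2 members had 123, 110.1, 144, 143, 134, 183, 75.7 and 145 CPM. There hashtag 7 was lowest, and the ranges overlapped because other cells reached 108 CPM in hashtag 6.

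Mef2c, a transcription factor of lymphoid and myeloid progenitors (chr13:83504017-83667079), behaved alike. Members had 231 CPM (225 to 238) against 87.5 CPM in other cells of experiment 1, and 244 CPM (239 to 250) against 97.6 CPM in experiment 2. By hashtag, members held 146 to 293 CPM and other cells 49.5 to 139 CPM in experiment 1, and 182 to 286 against 30.2 to 181 CPM in experiment 2, with no overlap in either, although in experiment 2 the lowest members and the highest other cells nearly met. A Mef2c UMI was seen in most members, since 96.6% and 94.9% held one.

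Cd34, a surface sialomucin of hematopoietic progenitors, had 258 and 257 CPM in members, against 132 and 105 CPM in other cells. Its ratio was 1.95 (1.90 to 2.00) and 2.45 (2.395 to 2.51), and it was higher in members in 8 of 8 hashtags of both experiments. Spi1 was less set apart, at 225 against 154 CPM in experiment 1 and 271 against 196 CPM in experiment 2, and in experiment 2 it was higher in 7 of 8 hashtags. Against double-positive cells the Spi1 ratio was 1.79 (1.74 to 1.85) and 2.05 (1.99 to 2.11).

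**Figure D1:**
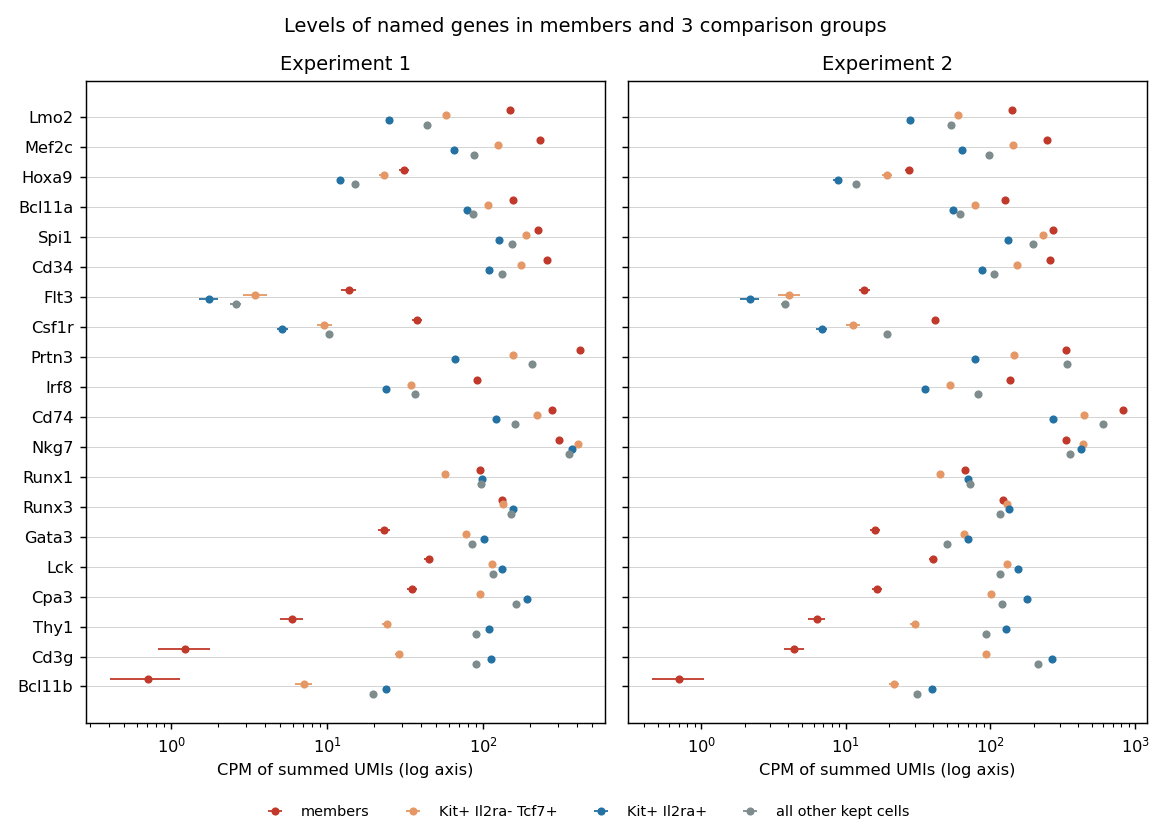
Levels of 20 named genes, in CPM of summed UMIs on a log axis, in members, Kit-positive Il2ra-negative Tcf7-positive cells, double-positive cells and all other kept cells; bars are exact 95% Poisson intervals. Lmo2, Mef2c and Csf1r are highest in members, Gata3, Thy1, Cd3g and Bcl11b are lowest there, and the Tcf7-positive cells lie between members and double-positive cells for most of them.

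Of the 22 stem and multipotent progenitor regulators on the list, 13 passed the floor in experiment 1 (at least 10 UMIs in both groups and 20 CPM in the higher one) and 11 in experiment 2. At least 2-fold higher in members were Mef2c, Lmo2 and Hoxa9 in experiment 1, and these and Bcl11a in experiment 2, while 0.656% and 0.283% of all genes past the floor were. The median log2 ratio of the list was 0.29 and 0.45, against -0.02 and 0.01 for all genes. The summed level of the list was higher in members in 8 of 8 hashtags of each experiment, at 1369 to 1671 CPM against 1057 to 1292 CPM in experiment 1. In experiment 2 it was 1144 to 1436 against 718 to 1145 CPM.

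Members of the list differed among themselves. Bcl11a, a zinc finger factor of lymphoid progenitors, had 155 and 126 CPM in members and 86.4 and 61.7 CPM in other cells. Hoxa9, a homeobox factor of stem and progenitor cells, had 31.3 and 27.3 CPM against 15.01 and 11.7 CPM. Myb, which progenitors need throughout, was lower in members, with 180.3 against 322 CPM and 112 against 167 CPM. Mycn, a growth regulator of progenitors, was 2.22-fold lower in experiment 1 (15.8 against 35.0 CPM), with 8.74 against 15.5 CPM in experiment 2, and it was higher in members in 1 of 8 and 4 of 8 hashtags. Lyl1, Nfe2, Etv6 and Hhex lay within a log2 ratio of 0.45 of 0 in both experiments. Gata2 and Cebpa lay under the floor, and Gata2 had a UMI in 8.56% and 7.56% of members.

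Csf1r, the receptor for macrophage colony-stimulating factor, was the receptor highest in members relative to other cells in experiment 1 among those past the floor. Members had 37.7 CPM (35.2 to 40.3) and 41.3 CPM (39.2 to 43.5), against 5.16 and 6.83 CPM in double-positive cells and 9.60 and 11.2 CPM in Tcf7-positive cells. The ratio to all other cells was 3.68 (3.40 to 3.99) and 2.14 (2.02 to 2.27). By hashtag, members of experiment 1 held 31.8, 33.7, 31.9, 32.0, 41.1, 41.7, 36.5 and 51.2 CPM and other cells 2.32 to 19.8 CPM, with no overlap. Csf1r in experiment 2 ranged from 22.7 to 55.3 CPM in members and from 3.79 to 45.8 CPM in other cells, so the ranges overlapped, although members were higher in each of the 8 hashtags.

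Flt3, the receptor for the Flt3 ligand in the medium, was low in all cells and stayed under the floor. It had 13.7 and 13.5 CPM in members, 3.43 and 4.06 CPM in Tcf7-positive cells and 1.75 and 2.17 CPM in double-positive cells. A UMI was seen in 25.9% and 29.1% of members, against 3.99% and 5.26% of double-positive cells. Csf2rb, the common beta chain for IL-3, IL-5 and GM-CSF, had 37.8 and 31.8 CPM in members against 9.55 and 8.62 CPM in double-positive cells. Il7r, the receptor for the other cytokine in the medium, went the other way, with 2.29 and 4.41 CPM in members against 21.4 and 27.8 CPM in double-positive cells. Ly6a (Sca-1) differed more between hashtags than between members and other cells, with 108 to 771 CPM in members of experiment 1 and 37.7 to 634 CPM in those of experiment 2.

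Of the 16 receptors, 9 and 10 passed the floor. Ly6a, Csf1r and Csf2rb were at least 2-fold higher than in other cells in experiment 1 (0.656% of all genes), and Cd34 and Csf1r were in experiment 2 (0.283%). Il7r was at least 2-fold lower in experiment 2 (3.42%). Their summed level was higher in members in 8 of 8 hashtags of experiment 1 and 7 of 8 of experiment 2. With each cell thinned to 10000 UMIs, 1 receptor was at least 2-fold higher in each experiment. Without hashtag 4 of experiment 1, or without hashtag 4 or 7 of experiment 2, it was also 1.

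T-lineage genes were lower in members. None of the 26 genes of this list was at least 2-fold higher, and 8 of 13 past the floor in experiment 1 and 8 of 14 in experiment 2 were at least 2-fold lower, where the share of all genes was 1.61% and 3.42%. Gata3, Cd3g, Lck, Thy1, Lat and Trbc1 were among them in both experiments. The median log2 ratio was -1.38 and -1.59. In all 8 hashtags of both experiments the summed level was lower in members, and in experiment 1 it ran from 778 to 1221 CPM in members and from 1455 to 2407 CPM in other cells without overlap. With each cell thinned to 10000 UMIs, 5 genes of the list were at least 2-fold lower in each experiment.

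Thy1, a surface glycoprotein gained as T progenitors advance (chr9:44043384-44048579), had 5.94 CPM in members of experiment 1 and 6.31 CPM in those of experiment 2, against 89.3 and 93.2 CPM in other cells. It was 15.03-fold (12.7 to 17.9) and 14.8-fold (13.0 to 16.9) lower in members. In hashtags 1 to 8 members had 4.03, 4.70, 11.1, 9.61, 6.85, 4.59, 7.72 and 9.74 CPM in experiment 1, and other cells at least 48.3 CPM. Experiment 2 gave 7.03, 7.14, 3.32, 27.7, 5.13, 4.77, 7.57 and 6.51 CPM, where hashtag 4 stood above the rest but still under the lowest other cells at 36.4 CPM.

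Cd3g, a chain of the T-cell receptor complex, had 1.23 and 4.38 CPM in members, against 112 and 268 CPM in double-positive cells and 28.9 and 92.4 CPM in Tcf7-positive cells. Bcl11b, the commitment factor, had 0.704 and 0.707 CPM in members, 7.09 and 21.5 CPM in Tcf7-positive cells and 23.9 and 39.3 CPM in double-positive cells. A Bcl11b UMI was seen in 1.45% and 1.24% of members and in 21.7% and 37.3% of double-positive cells. Cd3g and Bcl11b ranked first and second among genes lower than in double-positive cells, by the smaller difference of both experiments.

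Gata3 was low but present, which sets it apart from Cd3g and Bcl11b. Members had 23.2 and 15.9 CPM, against 78.1 and 65.9 CPM in Tcf7-positive cells and 101 and 70.0 CPM in double-positive cells. A Gata3 UMI was seen in 39.6% and 30.2% of members. By hashtag, Gata3 in members of experiment 1 was 21.4, 22.3, 36.9, 52.9, 22.6, 20.0, 23.2 and 21.2 CPM, highest in hashtags 3 and 4, which were also the highest among other cells at 146 and 145 CPM. Lck, the kinase next to the T-cell receptor, had 44.7 and 39.8 CPM in members against 131 and 155 CPM in double-positive cells.

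Notch1 and genes that report Notch signalling lay nearer to the other cells. Notch1 had 82.2 and 53.6 CPM in members against 83.2 and 50.9 CPM in other cells. Nrarp, a feedback target of Notch, had 29.9 and 26.7 CPM against 27.1 and 16.9 CPM. Hes1, another Notch target, was lower in members at 41.5 and 48.1 CPM against 71.0 and 67.8 CPM, and Dtx1 had 25.2 and 23.2 CPM against 41.4 and 24.3 CPM. None of these reached 2-fold against all other cells.

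**Figure D2:**
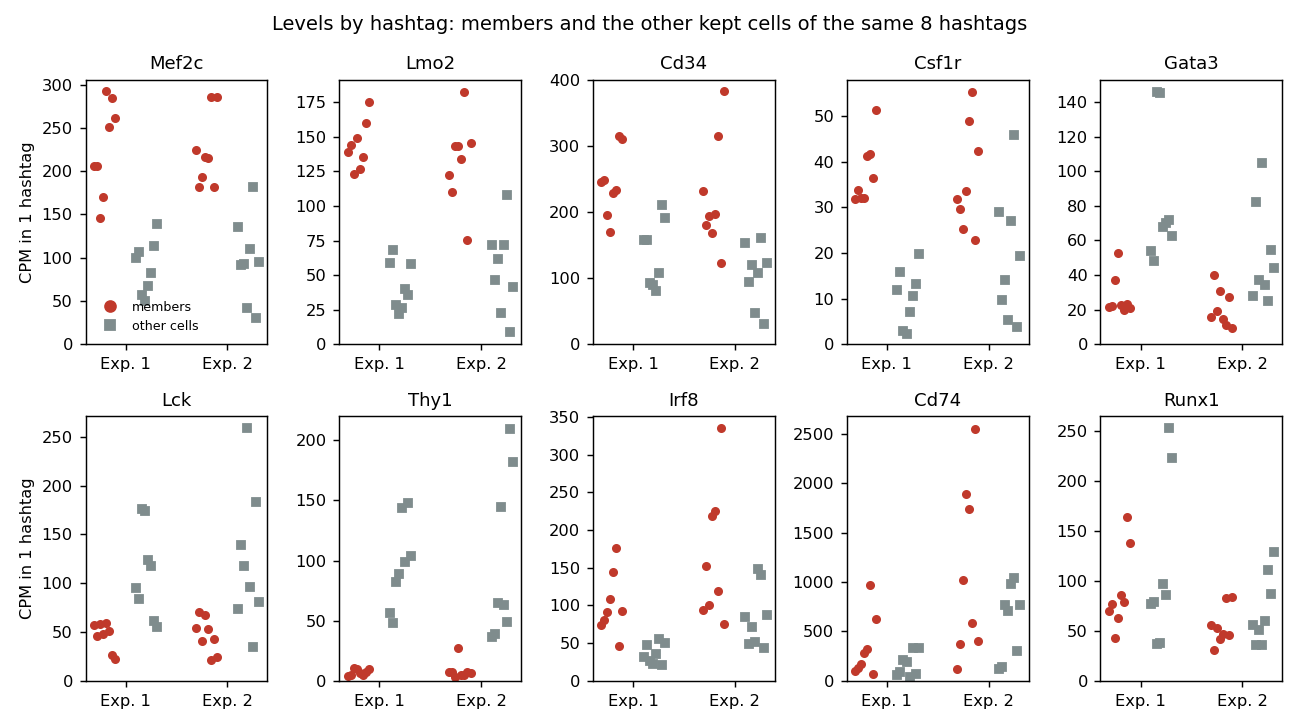
Levels of 10 genes in CPM, 1 point per hashtag in hashtag order from left to right within each cloud, for members (circles) and the other kept cells of the same hashtags (squares) in experiments 1 and 2. Mef2c and Thy1 do not overlap between members and other cells in either experiment, while Irf8, Cd74 and Runx1 spread widely within members, Cd74 from 120.0 to 2550 CPM in experiment 2.

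Innate lymphoid genes split. Gzma, a granzyme of killer cells, had 56.7 and 46.0 CPM in members against 1353 and 1228 CPM in other cells, and the T-cell receptor gamma and delta constant genes Tcrg-C1, Tcrg-C2, Tcrg-C4 and Trdc were between 7.78-fold and 32.1-fold lower. Because Tcrg-C1 and Tcrg-C2 are near-identical copies, the counts of each are uncertain. Zbtb16 (PLZF), a factor of innate lymphoid precursors, had 1.36 and 0.848 CPM against 15.5 and 14.98 CPM in Tcf7-positive cells. Fcer1g, a signalling adaptor, was lower at 114 and 129.8 CPM against 335 and 353 CPM. Tyrobp, the adaptor DAP12 of myeloid and natural killer cells, was higher at 755 and 861 CPM against 485 and 617 CPM. Nkg7, a cytotoxic granule gene, was near equal at 308 and 333 CPM against 356 and 357 CPM, and 70.9% and 74.0% of members held 5 or more of its UMIs. Of the 16 genes, 0 were at least 2-fold higher (0.656% and 0.283% of all genes), and 3 of 6 and 5 of 8 past the floor were at least 2-fold lower (1.61% and 3.42%).

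Cpa3, a mast cell protease that early T progenitors also express, had 34.9 and 16.5 CPM in members, 95.8 and 101 CPM in Tcf7-positive cells and 189.8 and 178 CPM in double-positive cells. At least 5 of its UMIs were held by 4.22% and 2.76% of members, against 42.7% and 46.3% of double-positive cells. Itga2b, an integrin of megakaryocytes and early progenitors, was 5.39-fold (4.78 to 6.10) and 6.95-fold (6.11 to 7.94) lower than in double-positive cells.

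Myeloid genes depended on the cells they were set against. Prtn3, a protease of granulocyte and monocyte precursors, had 415 and 330.2 CPM in members, against 66.1 and 78.0 CPM in double-positive cells, a ratio of 6.29 (6.10 to 6.48) and 4.23 (4.10 to 4.37). Against all other cells the ratio was 2.01 (1.97 to 2.06) and 0.971 (0.952 to 0.99001). It was unevenly spread, since the 83 and 112 members with the most held 53.1% and 58.8% of its UMIs. Mpo, the granule peroxidase, had 17.3 and 15.7 CPM in members and 9.64 and 17.6 CPM in double-positive cells, and 1.21% and 2.49% of members held 5 or more UMIs.

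S100a9, the partner of S100a8, had 0.969 and 14.1 CPM in members against 78.0 and 1963 CPM in all other cells. The rule itself removed the cells rich in S100a8, Elane, Mcpt8 or Col1a2 from members and left them among the other 8503 and 9089 cells. With such cells removed from the others, which left 8008 and 7690 cells, other cells had 0.841 and 15.7 CPM of S100a9, and 34.8% of members of experiment 2 held a UMI. These levels lie near those in Tcf7-positive and double-positive cells, at 1.33 and 0.825 CPM in experiment 1 and 15.7 and 15.6 CPM in experiment 2.

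The lists of other cell types were therefore counted against double-positive cells, which passed the same lineage limits. Over all genes, 1.25% and 1.81% were at least 2-fold higher in members and 1.99% and 2.48% were lower. Of 5 granulocyte and monocyte genes past the floor, Prtn3, Csf1r and the lysozyme gene Lyz2 were at least 2-fold higher in both experiments, and 0 were lower. Of 8 dendritic genes, Irf8 and Cd74 were higher in both, the class II genes H2-Aa, H2-Ab1 and H2-Eb1 were higher in experiment 2, and Ly6d, a surface protein of lymphoid precursors, was lower in both. In the erythroid and megakaryocyte list, Car2 (carbonic anhydrase) was higher and Itga2b and Zfpm1 (the GATA1 partner FOG1) were lower, of 4 past the floor. The mast cell list held Cpa3 alone past the floor, which was lower. In the B-lineage list, Ighm was higher in experiment 1 and Cd79b in experiment 2, of 2 past the floor in each. No stromal gene passed the floor in this comparison.

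Counts over all genes were read on both sets of other cells, with and without lineage-rich cells. Against all other kept cells, 37 of 5637 genes past the floor were at least 2-fold higher in members (0.656%) and 91 lower (1.61%) in experiment 1, and 15 of 5298 higher (0.283%) and 181 lower (3.42%) in experiment 2. Without cells rich in a lineage gene, experiment 1 gave 39 higher (0.692%) and 90 lower (1.6%), and experiment 2 gave 12 higher (0.232%) and 106 lower (2.05%). Both experiments shared 10 higher and 65 lower genes against all other cells, of 5119 genes past the floor in both. With each cell thinned to 10000 UMIs, 16 were higher and 50 lower in experiment 1, and 9 higher and 98 lower in experiment 2. Without any 1 hashtag, there were 30 to 48 higher and 85 to 104 lower in experiment 1, and 13 to 20 higher and 143 to 171 lower in experiment 2.

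After Lmo2, the genes that ranked next in the same way were Cox4i2, Mef2c, Egfl7, Cox6a2, Pou2f2, Csf1r, Car2 and Hoxa9. Egfl7, a secreted protein of endothelial and stem cells whose intron holds the miR-126 gene, had 170 and 232 CPM in members and 67.9 and 75.1 CPM in other cells. By hashtag it ranged from 68.9 to 383 CPM and from 27.7 to 447 CPM in members, and members were higher in 8 of 8 hashtags of both. Cox4i2, an alternative subunit of cytochrome c oxidase, had 90.9 and 151 CPM against 35.8 and 52.6 CPM. Its members ranged from 13.5 CPM in hashtag 3 to 293 CPM in hashtag 8 of experiment 1, and in experiment 2 members were higher in 7 of 8 hashtags. Pou2f2, the octamer factor Oct-2, had 110 and 97.6 CPM against 43.4 and 42.1 CPM. Genes at the other end, beside those above, included Fgf3, Pgam2 and Epcam, and Fgf3, a fibroblast growth factor, was 17.5-fold and 11.6-fold lower than in other cells.

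More genes were at least 2-fold higher in members against double-positive cells, the next stage by Il2ra, than against all other cells. Lower genes were more in experiment 1 than the 91 against all other cells. In experiment 2 they were fewer than the 181 against all other cells, but more than the 106 without lineage-rich cells. Against double-positive cells 71 of 5676 genes were higher (1.25%) and 113 lower (1.99%) in experiment 1, and 94 of 5206 higher (1.81%) and 129 lower (2.48%) in experiment 2. Of 5126 genes past the floor in both, 51 were higher in both and 99 were lower in both. The leading higher genes, ranked the same way after the values were seen, included myeloid ones: Csf1r, Ms4a4c, Tgfbi, Ms4a6c, Prtn3, the factor Irf8, and the lysosomal protease Ctss stood beside Lmo2, Mef2c and Pou2f2. Each of these 10 genes was higher in members than in double-positive cells in 8 of 8 hashtags of both experiments, and Cd3g, Bcl11b, Gata3 and Lck were lower in 8 of 8. Ctss had 68.9 and 106 CPM in members against 18.1 and 26.1 CPM.

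Against Tcf7-positive cells, which differ from members by the rule only in Tcf7, fewer genes stood apart. At least 2-fold higher were 37 of 5576 genes (0.664%) in experiment 1 and 46 of 5162 (0.891%) in experiment 2, and lower were 53 (0.951%) and 81 (1.57%). Lmo2 was 2.56-fold (2.42 to 2.70) and 2.34-fold (2.22 to 2.47) higher in members, and Mef2c 1.86-fold (1.79 to 1.94) and 1.70-fold (1.64 to 1.76). T-lineage genes already separated the groups, with 6 of 12 and 10 of 15 past the floor at least 2-fold lower in members. Within hashtags, Lmo2 was higher than in Tcf7-positive cells in 8 of 8 and 7 of 8, and Mef2c in 8 of 8 in both, with median ratios of 1.89 and 2.05 for Lmo2 and 1.45 and 1.43 for Mef2c. Runx1 had a pooled level of 94.9 against 57.1 CPM and 66.1 against 44.9 CPM, but within hashtags it was higher in members in 4 of 8 and 3 of 8, with median ratios of 1.01 and 0.958. A hashtag held between 24 and 336 Tcf7-positive cells in experiment 1 and between 13 and 317 in experiment 2. The pooled groups draw unequally on the hashtags, and these values within hashtags were added after the data were seen.

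**Figure D3:**
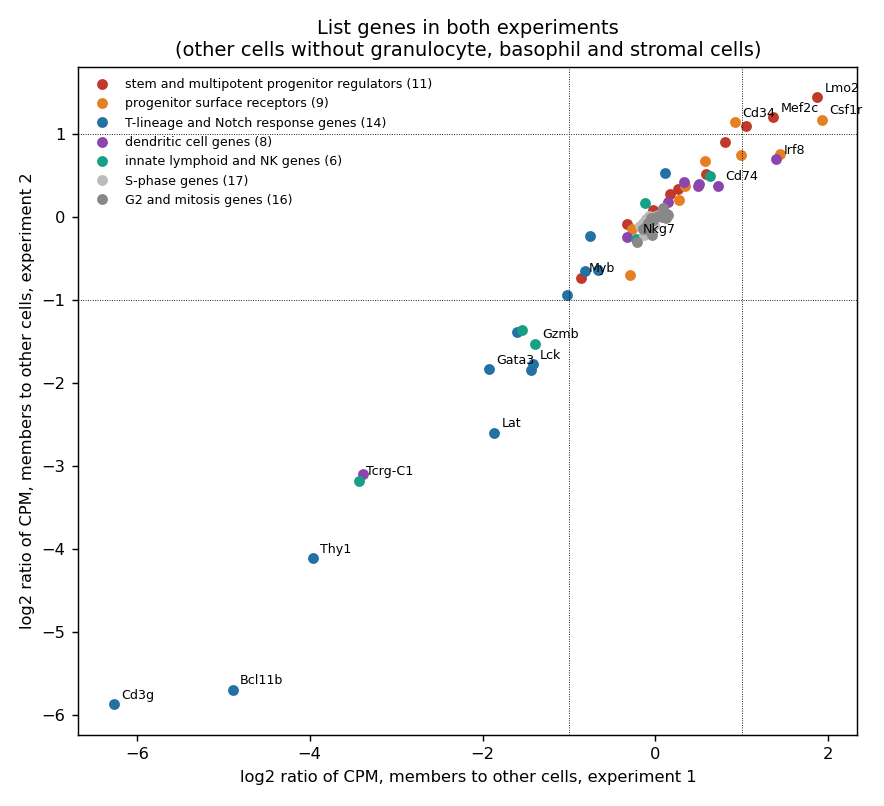
Log2 ratio of CPM in members to other kept cells without cells rich in a lineage gene, experiment 1 on the x axis and experiment 2 on the y axis, 1 point per list gene past the floor in both; numbers in the legend count the genes and dotted lines mark 2-fold. T-lineage genes reach down to Cd3g, progenitor regulators and receptors reach up to Lmo2 and Csf1r, and the 17 S-phase and 16 mitosis genes sit near 0.

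Summed over hashtags, genes of the cell cycle had like levels in members and other cells. None of the 17 S-phase genes and 16 G2 and mitosis genes was 2-fold apart in either experiment. Over all genes such calls were also few, at 0.656% and 0.283% higher and 1.61% and 3.42% lower. Their summed levels were 2595 and 2221 CPM in members against 2750 and 2153 CPM for S phase, and 2355 and 2280 CPM against 2377 and 2226 CPM for mitosis.

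Runx1, which the study perturbed, varied over hashtags in members, over a narrower range than in other cells. Runx1 in members of experiment 1 was 70.1, 76.9, 43.0, 62.5, 85.7, 78.8, 164 and 138 CPM in hashtags 1 to 8, and 76.5, 78.6, 36.5, 37.9, 97.2, 86.1, 253 and 223 CPM in other cells. Hashtags 7 and 8 were the highest in both sets of cells. In experiment 2 Runx1 in members was 55.9, 30.6, 53.1, 42.3, 47.3, 82.7, 45.5 and 84.4 CPM. Hashtags 6 and 8 were the highest there, and hashtag 7, with 86.8 CPM in other cells, was not. These counts do not separate vector from endogenous transcripts. Runx3 had 132 and 122 CPM in members against 151 and 117 CPM in other cells. Runx2 was higher in members, with 40.4 and 29.3 CPM against 23.4 and 21.0 CPM, in 8 of 8 and 6 of 8 hashtags, and their shared partner Cbfb differed by under 2-fold.

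Hashtags differed widely in how many members they held. Of cells with at least 10000 UMIs, members made up 13.3, 16.6, 2.91, 2.26, 7.21, 8.22, 16.3 and 15.6% in hashtags 1 to 8 of experiment 1. Experiment 2 gave 22.8, 3.75, 11.9, 3.45, 15.4, 24.1, 3.27 and 18.4%. Hashtags 3 and 4 of experiment 1 (intervals 2.00 to 4.08% and 1.47 to 3.31%) and hashtags 2, 4 and 7 of experiment 2 lay clear below all others of their experiment, whose lowest interval bound was 5.54 and 9.96%. Within hashtags the median depth of cells with at least 10000 UMIs lay between 20066 and 29906 UMIs in experiment 1 and between 20657 and 32058 UMIs in experiment 2. With each cell thinned to 10000 UMIs and the rule applied again, the shares ran from 3.97 to 14.9% and from 2.51 to 15.6%, and hashtags 4 and 7 were again the lowest of their experiments. Hashtags 3 of experiment 1 and 2 of experiment 2 no longer stood apart: thinned, hashtag 3 had 6.27% (4.91 to 7.87%) beside 5.82% in hashtag 6, and hashtag 2 had 7.71% (6.08 to 9.61%) beside 8.55% in hashtag 5 and 8.82% in hashtag 3.

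Low shares did not mean few Kit-positive cells. In hashtags 3 and 4 of experiment 1, 81.0 and 83.1% of cells with at least 10000 UMIs were Kit-positive and lineage-low, the highest values of that experiment. Members made up 3.59 and 2.71% of these Kit-positive cells, Tcf7-positive cells 37.7 and 31.9% and double-positive cells 58.7 and 65.4%. Thinned, members made up 11.1 and 6.86% of Kit-positive cells there. In hashtags 7 and 8, members made up 26.9 and 27.0% and Tcf7-positive cells 4.07 and 6.69%. Experiment 2 held a wider range, from 6.16% members and 55.8% Tcf7-positive cells in hashtag 2 to 65.1% members and 3.92% Tcf7-positive cells in hashtag 6. Thinned, members made up 19.5% in hashtag 2 and 71.2% in hashtag 6. These hashtags also differed in depth and in Runx1, as given above, and the part of either in the shares was not tested.

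**Figure D4:**
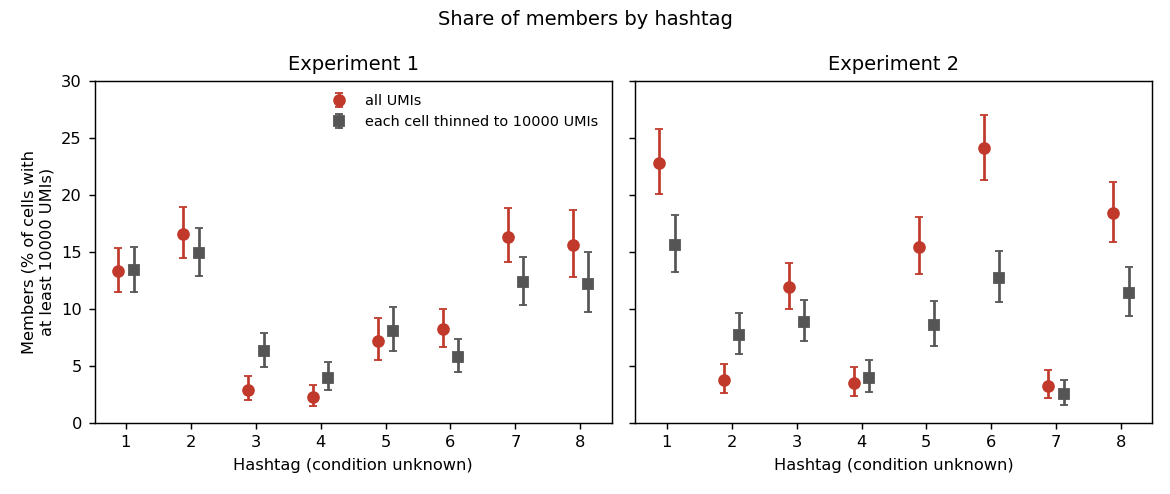
Members as a percent of cells with at least 10000 UMIs in each hashtag, with exact 95% intervals, from all UMIs (circles) and after each cell was thinned to 10000 UMIs (squares). Shares run from 2.26 to 16.6% in experiment 1 and from 3.27 to 24.1% in experiment 2 with all UMIs, and hashtags 4 and 7 are lowest with either count.

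Within members, genes of dendritic cells and of antigen presentation were the most uneven. Cd74, the invariant chain of MHC class II, had 274 and 819 CPM in members, with a median of 0 and 1 UMIs and a highest cell of 175 and 490 UMIs. The 83 and 112 members with the most held 65.6% and 63.6% of its UMIs, against 24.4% and 25.1% when ranked in the same way for Mef2c. By hashtag it ran from 69.2 CPM in hashtag 7 to 967 CPM in hashtag 6 of experiment 1, and from 120.0 CPM in hashtag 1 to 2550 CPM in hashtag 7 of experiment 2.

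Members with at least 50 Cd74 UMIs, a limit set after the values were seen, numbered 28 (3.38%, 2.26 to 4.84%) in experiment 1 and 182 (16.2%, 14.1 to 18.5%) in experiment 2. Of double-positive cells 0.867 and 5.05% passed the same limit, of Tcf7-positive cells 2.06 and 8.75%, and of cells with 5 or more Col1a2 UMIs 7.69 and 17.7%. Cells with 0 UMIs of Kit, Il2ra and Tcf7 that met the other limits of the rule passed it more often than members, at 4.45 and 27.9%. Hashtag doublets made up 1 of the 28 and 52 of the 182. In experiment 2 the share of such members ran from 3.63% in hashtag 1 to 34.5% in hashtag 4 (17.9 to 54.3%).

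These members differed from the others in more than class II genes, at median depths of 28061 and 29894 UMIs in experiment 2. Batf3, a factor of conventional dendritic cells, had 59.7 against 2.78 CPM, Id2 280.5 against 41.8 CPM, Itgax (CD11c) 45.5 against 7.49 CPM and Irf8 290 against 106 CPM. Xcr1, a receptor of cross-presenting dendritic cells, had 28.5 against 0.0678 CPM, but a UMI was seen in 8.24% of them only. Nkg7 was lower, with 169 against 366 CPM. The plasmacytoid marker Siglech had 0.171 against 0.373 CPM. In the 28 cells of experiment 1, Batf3 had 40.0 against 2.19 CPM, Id2 195 against 38.4 CPM and Nkg7 111 against 315 CPM.

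The progenitor markers did not share a direction in them. Mef2c had 234 and 213 CPM in members with at least 50 Cd74 UMIs, against 231 and 251 CPM in the others. Lmo2 had 162 and 115 CPM against 147 and 146 CPM, and Cd34 261 and 195 CPM against 258 and 269.9 CPM. Spi1 was higher, with 372 and 437 CPM against 219.9 and 238 CPM.

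Irf8, a factor of dendritic and monocyte precursors, also divided members. It had 91.6 and 137 CPM in members, against 23.7 and 35.3 CPM in double-positive cells, and 18.2% and 26.4% of members held 5 or more UMIs. Those 151 and 297 members had 1011 and 711 CPM of Prtn3, against 237 and 145 CPM in the others, and 317 and 350.0 CPM of Spi1 against 198 and 233 CPM. Nkg7 was lower in them at 181 and 201 CPM against 346 and 397 CPM. They were also deeper, with a median of 32719 and 36774 UMIs against 25110 and 27440 UMIs, and the part of depth was not tested. Members with under 5 UMIs of each of 10 such genes (the 12 examined without Cd34 and Mki67) made up 18.9% and 13.2%, and 70.4% and 60% after thinning. Of these 10, Nkg7 was held at 5 or more UMIs by the most members, 70.9% and 74.0%. The same held for 82.5% and 87.8% of double-positive cells. Of the 12 genes examined in this way, Flt3, Mpo, Gata1, Ebf1, Cd79a, Gata3 and Bcl11b were held at 5 or more UMIs by under 3% of members in both experiments.

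Erythroid genes differed in how many members held them. The globin gene Hbb-bt was found in most, with medians of 14 and 12 UMIs per member and none in 92 of 829 and 182 of 1125, at 1289 and 1266 CPM in members against 1692 and 1219 CPM in other cells. Gata1, the erythroid factor, had a UMI in 3.02% and 2.49% of members. B-lineage genes were rare, and Ebf1 and Cd79a, which mark B-cell precursors, had 5 or more UMIs in 6 and 8 members of experiment 2, and the 30 members of hashtag 7 had 114 CPM of Cd79a, against at most 1.09 CPM in the other 7 hashtags.

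Cd74 and Irf8 were lower with more Kit UMIs in both experiments, while Mef2c showed no such order in either. Lmo2 was lower with more Kit UMIs in experiment 1, at 157, 153, 149 and 137 CPM with 0, 1, 2 and 3 or more. It was not in experiment 2, at 128, 139, 133 and 159 CPM. The cells just outside the rule, with 0 UMIs of Kit, Il2ra and Tcf7 alike, numbered 449 and 1374, and their Mef2c (235 and 225 CPM) and Lmo2 (157 and 128 CPM) lay near those of members with 1 Kit UMI (229 and 242 CPM, and 153 and 139 CPM). Cd74 in experiment 2 was 1683 CPM with 0 Kit UMIs, 1060.4 CPM with 1, 585 CPM with 2 and 416 CPM with 3 or more. In experiment 1 it was 385, 373, 234 and 150 CPM. Cd34 in experiment 2 was higher with more Kit, at 207, 239, 264 and 306 CPM, and in experiment 1 it was 263, 259, 247 and 269 CPM. Spi1 was 362, 296, 236 and 249 CPM in experiment 2 and 272, 245, 221 and 195 CPM in experiment 1. Irf8 followed Cd74 with 249, 170, 103 and 83.5 CPM in experiment 2, and Nkg7 went the other way with 208, 308, 363 and 365 CPM. Cells with more Kit were deeper, with medians of 26134 and 32608 UMIs at 0 and at 3 or more Kit UMIs in experiment 2 and of 25542 and 27284 UMIs in experiment 1, and its part in these differences was not tested.

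Within hashtags, Cd74 was higher in members with 1 Kit UMI than in those with 2 or more in 7 of 8 hashtags of both experiments, Irf8 in 8 of 8 and Spi1 in 7 and 8 of 8. Nkg7 was higher in 1 of 8 and 0 of 8 hashtags. Mef2c was higher in 3 of 8 and 5 of 8, and Lmo2 in 4 of 8 of both experiments. Lmo2 was higher in cells with 0 Kit UMIs than in members with 2 or more in 7 of 8 hashtags of experiment 1 and 1 of 8 of experiment 2.

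**Figure D5:**
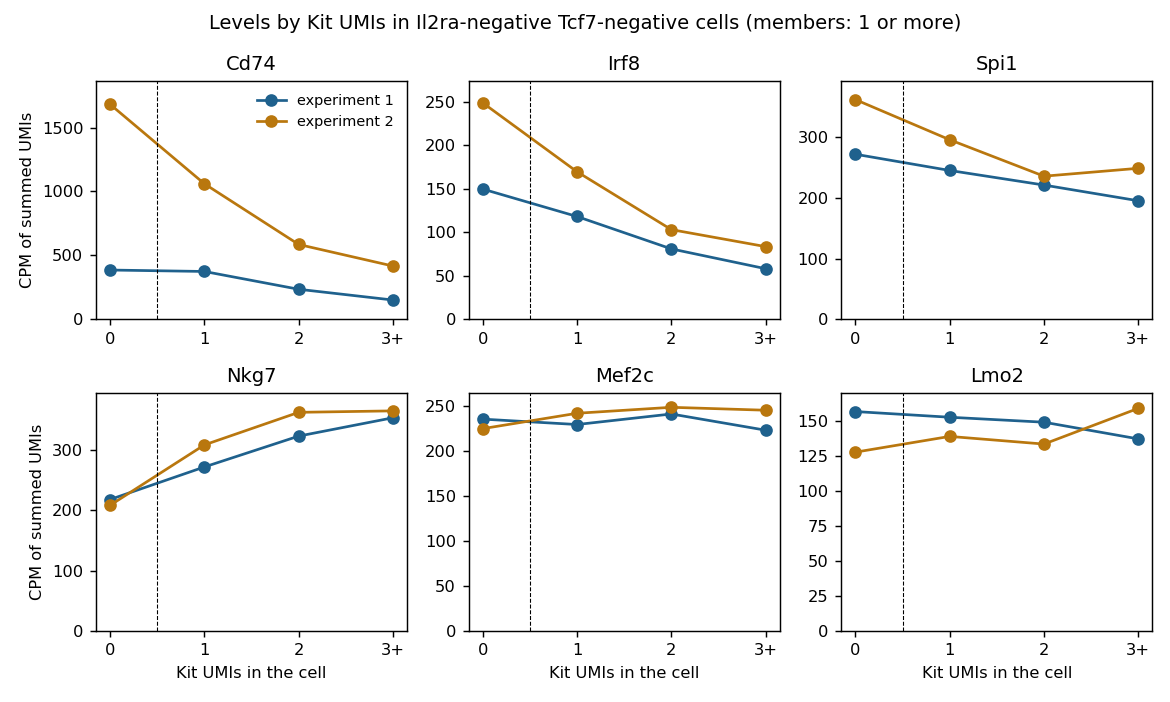
CPM of summed UMIs of 6 genes in cells with 0 UMIs of Il2ra and Tcf7, split by the Kit UMIs of the cell (x axis, 0 to 3 or more), in experiments 1 and 2; members lie right of the dashed line. Cd74, Irf8 and Spi1 are lower and Nkg7 is higher at 3 or more Kit UMIs than at 0, and Mef2c stays between 223 and 249 CPM.

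At the Tcf7 limit a step was seen in levels pooled over hashtags. Kit-positive cells with 0 Il2ra and exactly 1 Tcf7 UMI had 186 and 202 CPM of Mef2c, 92.3 and 103 CPM of Lmo2 and 38.6 and 34.2 CPM of Gata3, values between those of members and of the whole Tcf7-positive group. At the Il2ra limit there was little step in Mef2c and Lmo2. Cells with exactly 1 Il2ra UMI and 0 Tcf7 UMIs had 231 and 227 CPM of Mef2c. Their Lmo2 was 131 and 118 CPM, and both genes lay near the levels of members. Cd3g in these cells was 0.492 CPM in experiment 1 but 50.05 CPM in experiment 2, against 1.23 and 4.38 CPM in members. Levels at both limits were not compared within hashtags. The part of unequal hashtag shares in these levels was not tested.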

How the data were processed

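Cell barcodes by gene matrices of mRNA and per-cell hashtag counts were used from 2 experiments. The deposited mRNA values are raw UMI counts without normalization, made by the authors with Cell Ranger 3.0.0 on mm10/GRCm38 per the submitters' processing notes, from 10x Chromium v3 libraries per the labels' protocols. Whether the deposited hashtag counts are molecules or reads is not given in the sources used here. Of 31053 gene rows, 71 shared a symbol and were kept apart by ID, and positions come from RefSeq (GRCm38.p6), matched by symbol.

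Kept cells got their hashtag from Seurat 5.3.0 (R 4.3.3), by HTODemux with its quantile at 0.99, and numbered in column order. UMIs were summed over cells and divided by all their UMIs to give CPM. Intervals are exact (Poisson for CPM, Clopper-Pearson for shares, conditional binomial for ratios), at 95%, and cover counting error only. A gene passed the floor with at least 10 UMIs in both groups and 20 CPM in the higher one, and was called at 2-fold. Conditions being unknown and each experiment a single library, p-values were not computed and no replicates stand behind a difference. Thinning drew 10000 UMIs per cell without replacement. No doublet caller was run; hashtag doublets were kept and their share is given. The calling step was tested on simulated data. The text names the genes of the rule, of 13 lists and the 15 highest and 15 lowest ratios to other cells (ranked by the weaker experiment); other genes were chosen after their values were seen. The members, lists and limits were chosen with earlier results of these data known, so no pattern is independent support. Alternatives covered depth, each limit, the cells compared, hashtag calls and scaling (edgeR 4.0.16, DESeq2 1.42.0).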

Additional observations from a re-analysis of the deposited data

Results flagged for a closer look

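Values over the 8 hashtags were screened for a single hashtag standing apart, by the gap to the nearest other hashtag as a share of the whole range, by Dixon's critical value at 95%. Of 58 sets of 8 values, 5 passed, and chance flags about 1 in 20. Ly6a in members of experiment 1 was 771 CPM in hashtag 8, with the next hashtag at 404 CPM. Cd3g in members of experiment 1 was 22.4 CPM in hashtag 4, with the next at 4.92 CPM, and that hashtag held 25 members. Thy1 in members of experiment 2 was 27.7 CPM in hashtag 4, with the next at 7.57 CPM, and that hashtag held 29 members. Runx3 in members of experiment 2 was 68.3 CPM in hashtag 2, below the next lowest at 113 CPM. The summed B-lineage list in members of experiment 2 was 868 CPM in hashtag 7, which held 30 members, with the next at 157 CPM.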

How the results depend on the processing

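No paired analysis was possible because no result comes from a test to which a block could be added; members and other cells of the same hashtag were set side by side as a description. Conditions were not compared, hashtags of 25 to 35 members give wide intervals, and the 2-fold limit sets every count of genes. Of 105 named ratios past 2-fold, 105 kept their sign when cells were thinned, rescaled (TMM of edgeR, size factors of DESeq2) or restricted to 1 positive hashtag, under stricter cell limits and without any 1 hashtag, and 75 stayed past 2-fold when thinned. The cause of each shift below was not tested.

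With cells thinned to 10000 UMIs, genes at least 2-fold higher and lower numbered 16 and 50 in experiment 1 (37 and 91 as reported) and 9 and 98 in experiment 2 (15 and 181). Higher receptors were 1 in each, higher stem regulators in experiment 2 were 2, and lower T-lineage genes were 5 in each. The share of members was 8.42% in experiment 2, 3.97% in hashtag 4 of experiment 1 and 12.7% in hashtag 6 of experiment 2, and members with none of 10 lineage genes at 5 UMIs were 70.4% and 60% (18.9% and 13.2% as reported). A minimum of 10 CPM gave 57 higher and 166 lower genes in experiment 1 and 23 and 312 in experiment 2, and 50 CPM gave 13 and 49, and 8 and 82. With at least 2 Kit UMIs, 19 genes were higher in experiment 1, 1 receptor was higher in each experiment, and shares were 5.13% and 5.06% (9.01% in hashtag 2 of experiment 1, 10.1% in hashtag 6 and 1.31% in hashtag 7 of experiment 2). Without the Tcf7 limit shares were 25.1% and 23.2%, with 34.2% in hashtag 2 and 28.8% in hashtag 4 of experiment 1 and 7.52% in hashtag 7 of experiment 2. With 0 UMIs of each lineage gene shares were 7.50% and 5.85%, with 12.04% in hashtag 2 of experiment 1 and 11.8% in hashtag 6 and 2.07% in hashtag 7 of experiment 2, and 118 genes were lower in experiment 2. Stricter limits on genes and mitochondrial UMIs gave a share of 10.7% in experiment 1, and in experiment 2 a higher minimum of total UMIs gave 12.97% and cells with 1 positive hashtag 12.8%. Leaving out 1 hashtag at a time, higher receptors ranged from 1 to 4 in experiment 1 and from 1 to 2 in experiment 2.

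In experiment 2, other cells without lineage-rich cells gave 106 lower genes. Kit-positive other cells gave 74 higher and 112 lower genes and 4 higher receptors. Both sets were chosen after seeing the data. Log2 ratios that changed sign were those of Mpo (0.41, 0.81 and 0.81) and S100a9 (0.26, 0.20 and 0.033) in experiment 1, with 0 lineage UMIs, without lineage-rich cells and against Kit-positive cells. In experiment 2, 0 lineage UMIs gave 0.17 for Mpo, 0.23 for Ms4a3, 0.24 for Lyz2, 0.21 for Col3a1, 0.43 for Fbn1 and 0.28 for Col6a1. Without lineage-rich cells the values were 0.15 for Mpo, 0.27 for Ms4a3, 0.069 for Lyz2, 0.0074 for Fbn1 and 0.048 for Col6a1. Against Kit-positive cells they were 1.36 for Ms4a3, 1.62 for Lyz2, 0.66 for Ly6c2, 0.92 for Ebf1, 0.016 for Col3a1, 0.084 for Sparc, 0.078 for Bgn, 0.14 for Fbn1 and 0.19 for Col6a1.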
